A study of Mus musculus with 8 samples.

Results

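The surface markers of haematopoietic stem cell (HSC) subsets described here are 6 genes, Neo1, Klrb1c, Alcam, Cd38, Procr and Ly6a, taken by their symbols from a deposited table of 24421 genes. All 6 had a row, and all 6 were among the 15917 genes that passed the filter on low counts. RNA was sequenced from long-term HSCs (LT-HSCs) of mouse bone marrow to set Vwf+ against Vwf- cells, and cells of heterozygous Dnmt3a+/- mice against those of wild-type (WT) mice. The 8 libraries formed 4 groups of 2, which were Vwf+ Dnmt3a+/-, Vwf+ WT, Vwf- Dnmt3a+/- and Vwf- WT. All mice were 10 to 12 months old and all carried the Vwf-GFP reporter, by which the cells were split into the Vwf+ and Vwf- fractions. All fractions were gated as lineage-negative and positive for CD117 and Sca1, with high CD150 and low CD48, so Sca1, the product of Ly6a, was itself part of the gate. Each library was a pool of 3 to 4 mice, and in each group replicate 1 was a male pool and replicate 2 a female pool. How the Dnmt3a allele was made, and whether a Vwf+ and a Vwf- pool came from the same mice, is not given in the sources used here.

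LT-HSCs sit at the top of blood formation, and surface proteins are used to divide them, because cells within the same gate differ in lineage output and in how often they divide. The Vwf reporter marks LT-HSCs biased toward megakaryocytes and platelets. Neo1 encodes neogenin, a receptor for netrins and repulsive guidance molecules that has been used to separate myeloid-biased from balanced HSCs. Klrb1c encodes the NK1.1 antigen, a lectin-like receptor best known from natural killer (NK) cells. Alcam encodes the adhesion molecule CD166, which binds CD6 and other ALCAM molecules, and Cd38 encodes an ectoenzyme that consumes NAD. Procr encodes the endothelial protein C receptor (EPCR), a marker of mouse HSCs, and Ly6a encodes Sca1, a small protein held by a lipid anchor.

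The 6 genes lie on 6 chromosomes of GRCm38, the build also called mm10, as annotated by GENCODE M21. Neo1 spans bases 58874687 to 59036441 of chromosome 9 on the minus strand, and Alcam spans bases 52248996 to 52454074 of chromosome 16 on the minus strand. Klrb1c spans bases 128778485 to 128789215 of chromosome 6 on the minus strand, and Ly6a spans bases 74994877 to 74998031 of chromosome 15 on the minus strand. Cd38 spans bases 43868553 to 43912375 of chromosome 5 on the plus strand, and Procr spans bases 155751117 to 155755471 of chromosome 2 on the plus strand. Klrb1c shares 413 exonic bases with Gm44511, an annotated gene on the same strand that has no row in the deposited table, so reads from that stretch are of uncertain assignment.

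The members whose RNA differed most between the fractions, Klrb1c and Neo1, differ in the CG content of the stretch before their RefSeq start, and both stretches are printed for that reason. Sequences are from RefSeq for GRCm38.p6, read 5′ to 3′ on the strand of the gene over the 250 bases before the start in RefSeq, and 5 of the 6 members (all but Ly6a) were matched. The RefSeq starts used differ from the GENCODE gene starts above for all of these but Neo1. By the GENCODE coordinates the Neo1 window lies fully before the gene, while the Klrb1c, Alcam and Cd38 windows lie inside the gene and the Procr window crosses its start. Capitals mark CG dinucleotides (the letters CG, counted on the gene's strand), the sites that DNA methyltransferases modify in mammals. The Neo1 window is chr9:59036442-59036691, and the printed part of the Klrb1c window, outside annotated exons, is chr6:128788642-128788886, both on the minus strand.
Neo1: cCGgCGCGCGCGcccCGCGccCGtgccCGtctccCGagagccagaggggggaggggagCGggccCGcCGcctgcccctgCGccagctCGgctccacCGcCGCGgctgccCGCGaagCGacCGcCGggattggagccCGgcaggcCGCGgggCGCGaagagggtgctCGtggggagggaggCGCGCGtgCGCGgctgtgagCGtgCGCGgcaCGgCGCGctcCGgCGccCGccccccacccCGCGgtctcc
Klrb1c: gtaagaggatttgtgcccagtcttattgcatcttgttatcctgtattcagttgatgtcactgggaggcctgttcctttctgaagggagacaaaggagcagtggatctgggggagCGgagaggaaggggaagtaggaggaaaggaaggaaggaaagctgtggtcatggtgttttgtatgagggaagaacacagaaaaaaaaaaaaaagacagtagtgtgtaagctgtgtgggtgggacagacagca
The Neo1 window held 45 CG dinucleotides, and 0.405% of 32841 such windows held as many or more. The Klrb1c window, of which 5 bases are annotated as exon, held 1, and 18.8% of windows held as few or fewer. The median over all windows was 6. The windows of Alcam and Cd38 are annotated as exon over all 250 bases and that of Procr over 100. Their counts of 22, 1 and 13 are thus partly or wholly those of annotated exons and are not set against the others. The Klrb1c window also lies inside its gene by the GENCODE coordinates. Its count is thus from within an annotated gene, unlike that of Neo1, and the printed stretches are not like for like.

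Total counts ran from 21809278 to 39402418 per library. Vwf, whose reporter set the fractions, stood at 1030 to 1410 CPM (a gene's counts scaled to a common library total) in Vwf+ libraries and at 98.9 to 116 CPM in Vwf- libraries. Dnmt3a stood at 179 to 361 CPM in the 4 Dnmt3a+/- libraries and at 175 to 251 CPM in the 4 WT libraries. Within each sex and fraction it was higher in the Dnmt3a+/- library, in 4 of 4 pairs, and the averaged log2 difference was 0.38 ± 0.16 (SE), with an unadjusted p of 0.041 and an adjusted p of 1 by edgeR. Counts over the whole gene do not show which allele they came from. Kit, which encodes CD117, was at 815 to 1030 CPM, and Cd48 was at 0.0861 to 3.19 CPM. The nuclear transcript Malat1 took 0.446% to 0.585% of counts in female libraries and 0.974% to 1.97% in male libraries. Each p-value below from a fit with group means alone measures the spread between pools of mice. Within a group that is the spread between its male and its female pool. Where replicate number, and so sex, was also in the model, the male to female difference shared by groups was taken out of that spread.

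Levels of different genes were compared in TPM, the deposited unit that corrects for gene length and library total. Procr had the highest level in both fractions, at 169 ± 50.6 TPM in Vwf+ libraries and 108 ± 45.6 TPM in Vwf- libraries (SD, n = 4 each). Over all 8 libraries it averaged 138 TPM, which put it at rank 860 of the 15917 tested genes. In Vwf+ cells Alcam followed at 76 ± 9.51 TPM, then Ly6a at 60.9 ± 16 TPM, Klrb1c at 35.0 ± 13.9 TPM, Neo1 at 27.6 ± 4.47 TPM and Cd38 at 17.9 ± 4.2 TPM (SD, n = 4 each). The single libraries of Alcam and Ly6a overlapped in TPM, as did those of Ly6a and Klrb1c and those of Klrb1c and Neo1, so the order of these neighbours is not set beyond their spread. In Vwf- cells Ly6a came after Procr at 49.7 ± 9.31 TPM, then Alcam at 33.1 ± 4.5 TPM (SD, n = 4 each). The single Vwf- libraries of Ly6a, down to 36.5 TPM, and of Alcam, up to 38.5 TPM, overlapped as well. Neo1 at 3.62 ± 0.805 TPM, Cd38 at 3.44 ± 1.22 TPM and Klrb1c at 2.95 ± 0.441 TPM were lowest there (SD, n = 4 each) and overlapped one another.

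**Figure D1:**
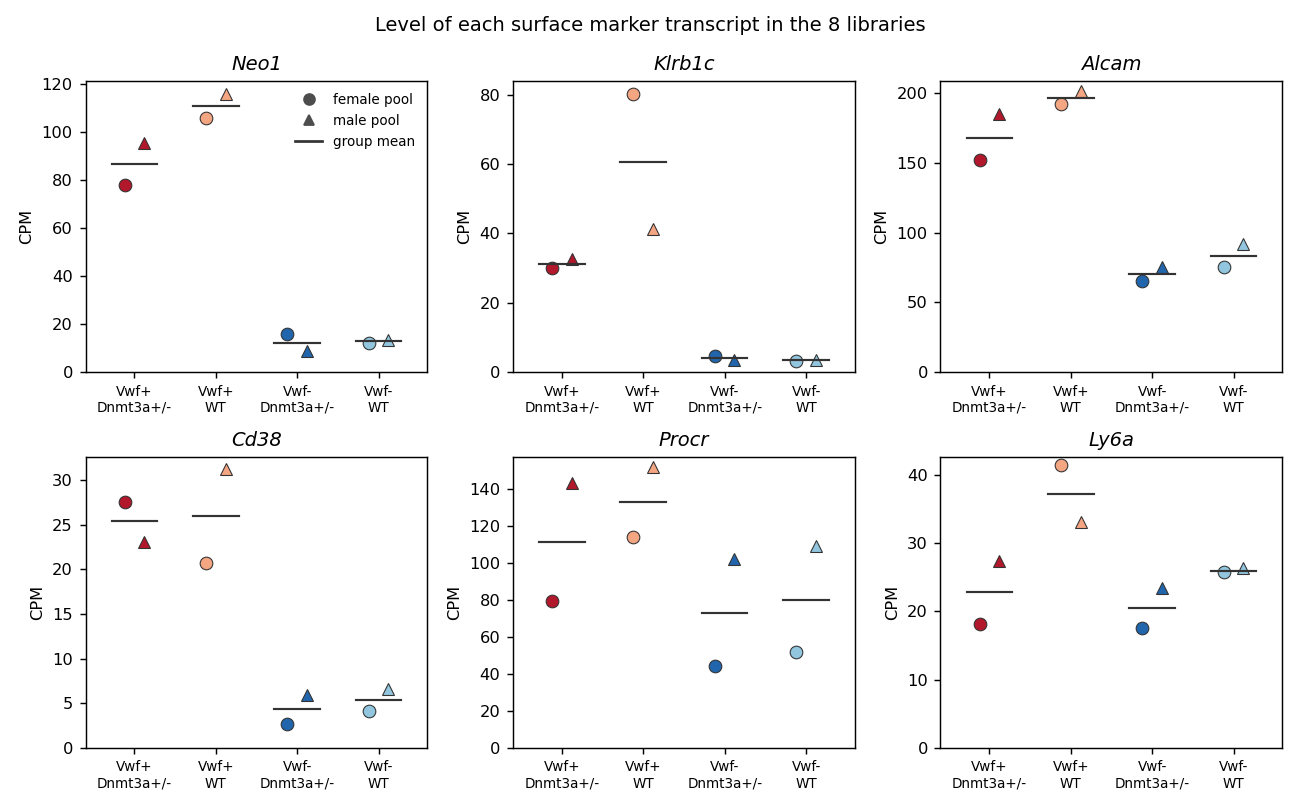
Levels of the 6 members in CPM in each of the 8 libraries, by group, with a panel per gene, circles for female pools, triangles for male pools and a line at the mean of the 2 libraries of each group. Neo1, Klrb1c, Alcam and Cd38 are higher in all 4 Vwf+ libraries than in any Vwf- library, while the libraries of Procr and Ly6a overlap between the fractions.

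In the comparison of Vwf+ with Vwf- cells, averaged over genotype, 4 of the 6 markers rose in Vwf+ cells, and none fell. These were Neo1, Klrb1c, Alcam and Cd38, by 2.38-fold to 12-fold in edgeR's quasi-likelihood test with Benjamini-Hochberg adjustment at 0.05. Of all 15917 genes tested, 3.76% were called higher by the same rule. The median log2 difference of the 6 members was 1.83, against -0.01 over all genes tested. The same 4 markers had Vwf+ and Vwf- libraries that did not overlap, which held, in that direction, for 7.71% of all genes. Neo1 and Klrb1c were already known from earlier results of these data when the members were chosen. The values of the set beside those of all genes are thus descriptions and not independent support.

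Neo1 stood at 95.5 and 78.2 CPM in Vwf+ Dnmt3a+/- libraries (replicate 1, male, then replicate 2, female) and at 116 and 106 CPM in Vwf+ WT libraries. In Vwf- cells it stood at 8.79 and 15.9 CPM in Dnmt3a+/- libraries and at 13.3 and 12.2 CPM in WT libraries. The lowest Vwf+ library was thus well above the highest Vwf- library. The log2 difference was 2.97 ± 0.18 (SE), or 7.84-fold, with an adjusted p of 2.5e-05. In RNA from bulk sorted cells, a lower level can mean fewer cells that carry the transcript or less of it per cell, and these cannot be told apart.

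Klrb1c showed the largest difference among the 6 markers. It stood at 32.5 and 29.9 CPM in Vwf+ Dnmt3a+/- libraries and at 41.2 and 80.1 CPM in Vwf+ WT libraries, against 3.37 and 4.53 CPM in Vwf- Dnmt3a+/- libraries and 3.61 and 3.09 CPM in Vwf- WT libraries. All Vwf+ libraries were above all Vwf- libraries, and the female Vwf+ WT pool stood apart at the top. The log2 difference was 3.58 ± 0.23 (SE), or 12-fold, with an adjusted p of 3e-05. Of 12 NK and T cell markers, 10 did not pass the filter on low counts. Ncr1 and Klrd1, receptors of NK cells, had at most 5 counts in any library, and the summed level of all 12 was 5.86 to 12.1 TPM in Vwf+ libraries and 19.4 to 23.7 TPM in Vwf- libraries. Most of that sum was Nkg7, a gene of cytotoxic granules, which fell in Vwf+ cells by 1.69 on the log2 scale. Il2rb, a chain of the interleukin-2 receptor, went the other way. It had counts in all 4 Vwf+ libraries, at most 46 and 0.0356 to 1.33 TPM, and 0 in all 4 Vwf- libraries, with an adjusted p of 0.053 by edgeR and 0.0049 with the replicate block. The part of such cells in the Klrb1c difference was not tested.

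Cd38 stood at 23.1 and 27.6 CPM in Vwf+ Dnmt3a+/- libraries and at 31.2 and 20.7 CPM in Vwf+ WT libraries. The Vwf- libraries had 5.92 and 2.68 CPM in Dnmt3a+/- cells and 6.58 and 4.14 CPM in WT cells. The fractions did not overlap, and the log2 difference was 2.41 ± 0.28 (SE), or 5.33-fold, with an adjusted p of 0.00087. Alcam, the adhesion molecule, was at 185 and 152 CPM in Vwf+ Dnmt3a+/- libraries and at 202 and 192 CPM in Vwf+ WT libraries, against 75.1 and 65.6 CPM in Vwf- Dnmt3a+/- libraries and 91.7 and 75.4 CPM in Vwf- WT libraries. Its difference was smaller, at 1.25 ± 0.12 on the log2 scale (SE) or 2.38-fold, but its replicates lay close together, and the adjusted p was 0.00023.

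Procr, the protein C receptor, did not pass the test averaged over genotype, but it did once the replicate number was in the model. It stood at 143 and 79.4 CPM in Vwf+ Dnmt3a+/- libraries and at 152 and 114 CPM in Vwf+ WT libraries, against 102 and 44.3 CPM in Vwf- Dnmt3a+/- libraries and 109 and 51.6 CPM in Vwf- WT libraries. The male pool was the higher of each pair, and the fractions overlapped, but within each sex and genotype the Vwf+ library was the higher one. Those 4 paired log2 differences were 0.84 in the female and 0.50 in the male Dnmt3a+/- pair, and 1.14 in the female and 0.49 in the male WT pair. The Vwf+ library was also the higher one in these 4 pairs for every other member. The share of all genes with this pattern was not calculated. Without a block the log2 difference of Procr was 0.67 ± 0.3 (SE) with an adjusted p of 0.29. With the replicate number, and so sex, as a block it was 0.74 ± 0.11 (SE) with an adjusted p of 8.1e-05, in a fit that called 7.42% of all genes higher. The unblocked test of all genes with no filter on low counts also called it, with an adjusted p of 6.3e-06. That fit called 1649 genes in either direction, against 866 with the filter. Procr was not called by DESeq2 (adjusted p = 0.51) or by edgeR with RLE size factors (adjusted p = 0.3), both also without a block. With a block of genotype and replicate number, edgeR called it (adjusted p = 5.5e-10), in a fit that called 2754 genes in either direction.

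Ly6a varied least between the fractions. It stood at 27.4 and 18.1 CPM in Vwf+ Dnmt3a+/- libraries and at 33.1 and 41.5 CPM in Vwf+ WT libraries, against 23.5 and 17.5 CPM in Vwf- Dnmt3a+/- libraries and 26.3 and 25.8 CPM in Vwf- WT libraries. The fractions overlapped, though within each sex and genotype the Vwf+ library was the higher one, by 0.05 to 0.68 on the log2 scale. The log2 difference of 0.33 ± 0.17 (SE) did not pass, with an adjusted p of 0.38 without and 0.13 with the replicate block. Its 95% interval ran from -0.05 to 0.72. All cells were gated on the Sca1 protein that this gene encodes.

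The same 4 markers passed the test within each genotype. In Dnmt3a+/- cells, where 0.892% of all genes were called higher in Vwf+ cells, the log2 differences were 2.82 for Neo1, 2.99 for Klrb1c, 1.26 for Alcam and 2.55 for Cd38, with adjusted p-values from 0.001 to 0.014 by edgeR. In WT cells, where 1.48% were called higher, they were 3.12 for Neo1, 4.18 for Klrb1c, 1.24 for Alcam and 2.28 for Cd38, with adjusted p-values from 0.00039 to 0.018. Cd38 was the least firm of these. Its call in Dnmt3a+/- cells was lost without the female Vwf+ Dnmt3a+/- library (adjusted p = 0.054). In WT cells it was lost without the male Vwf+ WT library (adjusted p = 0.09), the female Vwf+ WT library (0.05) or the female Vwf- WT library (0.15). Alcam in WT cells was lost without the female Vwf- WT library (adjusted p = 0.079).

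For Procr the log2 difference was 0.61 in Dnmt3a+/- cells and 0.73 in WT cells, neither of which passed without a block by edgeR (adjusted p = 0.87 in Dnmt3a+/- cells and 0.57 in WT cells). With the replicate block both passed, at 0.016 in Dnmt3a+/- cells and 0.0017 in WT cells, where the fit called 3.52% of all genes higher in Dnmt3a+/- cells and 4.57% in WT cells. Ly6a differed by 0.15 on the log2 scale in Dnmt3a+/- cells and by 0.52 in WT cells, and passed in neither. In Dnmt3a+/- cells its direction turned without the male Vwf+ Dnmt3a+/- library (-0.18) or without the female Vwf- Dnmt3a+/- library (-0.05).

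**Figure D2:**
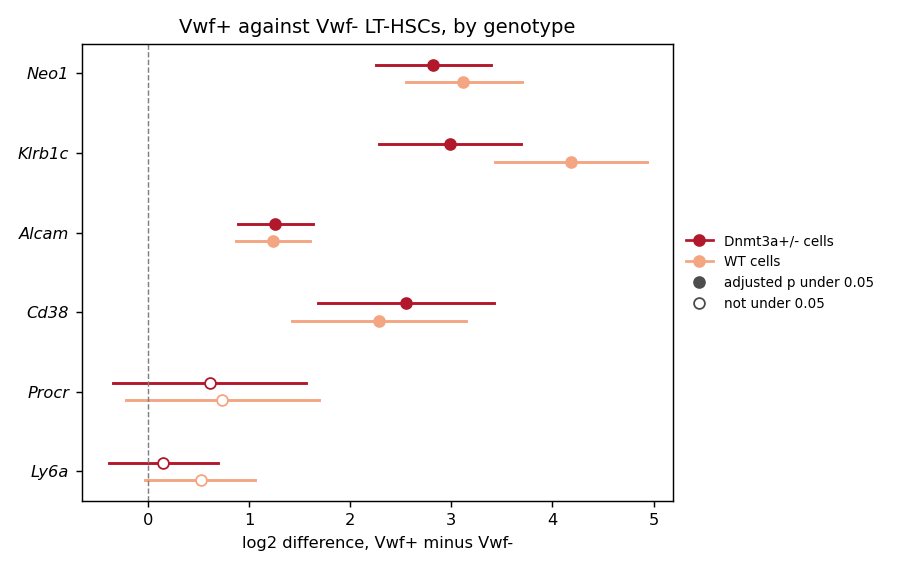
Log2 difference of Vwf+ over Vwf- cells for each of the 6 members (points, with 95% intervals from edgeR) in Dnmt3a+/- and in WT cells. Neo1, Klrb1c, Alcam and Cd38 lie above 0 in both genotypes with intervals that exclude 0, and the intervals of Procr and Ly6a include 0.

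Between Dnmt3a+/- and WT cells no marker passed the test, in a comparison where edgeR called 0 of 15917 genes, or 0%, with 516 at an unadjusted p under 0.05 and 15 called by DESeq2. All 6 log2 differences averaged over the fractions were below 0, with a median of -0.22 against 0.01 over all genes. The share of all genes below 0 was not calculated, and with single libraries left out Cd38 reached 0.05 and Procr 0.12. The libraries of the genotypes overlapped for each marker, while 0.848% of all genes were lower in all 4 Dnmt3a+/- libraries than in any WT library. Ly6a had the lowest value. In Vwf+ cells its Dnmt3a+/- libraries, at 27.4 and 18.1 CPM, were both below the WT libraries, at 33.1 and 41.5 CPM. In Vwf- cells the Dnmt3a+/- libraries, at 23.5 and 17.5 CPM, were likewise below the WT libraries, at 26.3 and 25.8 CPM. The averaged log2 difference was -0.53 ± 0.17 (SE), with an unadjusted p of 0.012 and an adjusted p of 1 by edgeR, or 0.21 with the replicate block. This pattern was not particular to Ly6a. In Vwf+ cells Alcam was at 185 and 152 CPM in Dnmt3a+/- libraries, below 202 and 192 CPM in WT libraries. In Vwf- cells it was at 75.1 and 65.6 CPM, below 91.7 and 75.4 CPM. The share of all genes separated in this way within both fractions was not calculated.

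Within Vwf+ cells, Klrb1c was at 32.5 and 29.9 CPM in Dnmt3a+/- libraries and at 41.2 and 80.1 CPM in WT libraries. The log2 difference was -0.96 ± 0.29 (SE), with a 95% interval of -1.61 to -0.31, an unadjusted p of 0.0081 and an adjusted p of 1 by edgeR. Of all genes, 363 had an unadjusted p under 0.05 in this comparison, edgeR called 0%, and DESeq2 called 3 genes. Without the female Vwf+ WT library the value was -0.40. With no filter on low counts the adjusted p of Klrb1c by edgeR was 0.036, in a fit that called 53 genes in this comparison. In Vwf- cells the difference was 0.23 ± 0.32 (SE), with 0% of genes called by edgeR, 211 at an unadjusted p under 0.05 and 2 called by DESeq2.

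The other markers did not pass either, and their intervals give the size of change these libraries allow. Averaged over the fractions, the log2 difference of Neo1 was -0.21 with a 95% interval of -0.59 to 0.17, and that of Alcam was -0.24 with an interval of -0.49 to 0.02. Cd38 differed by -0.17, with an interval of -0.76 to 0.42, and Procr by -0.19, with an interval of -0.87 to 0.48. These intervals do not show equal levels.

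**Figure D3:**
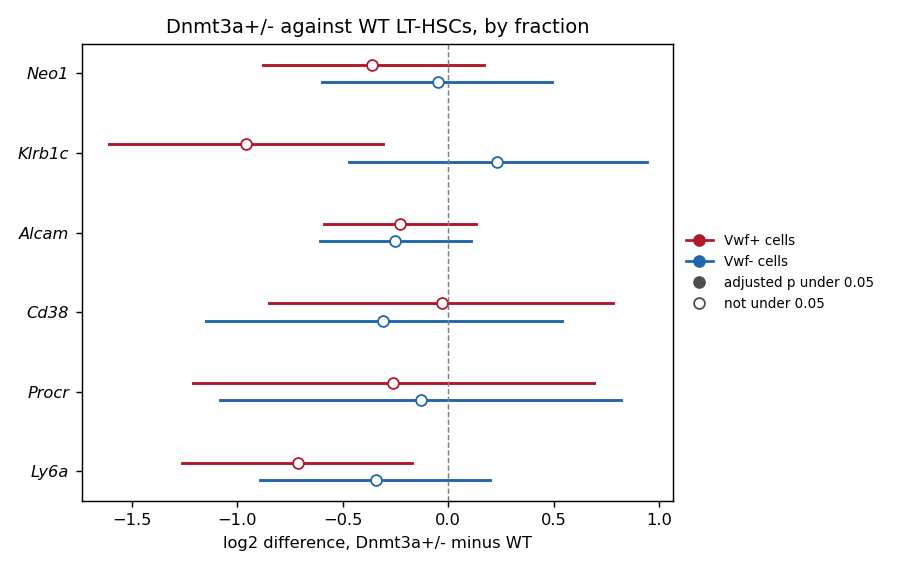
Log2 difference of Dnmt3a+/- over WT cells for each of the 6 members (points, with 95% intervals from edgeR) in Vwf+ and in Vwf- cells. In Vwf+ cells the intervals of Klrb1c and Ly6a lie below 0 before adjustment over all genes, and none of the 6 members passed after it.

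Whether the difference between the fractions itself differed with genotype was tested as an interaction, in which edgeR called 0 of 15917 genes, or 0%, with 159 at an unadjusted p under 0.05 and 0 called by DESeq2. Klrb1c had the largest value among the markers. Its fraction difference in Dnmt3a+/- cells minus that in WT cells was -1.19 ± 0.43 on the log2 scale (SE), with an unadjusted p of 0.019 and an adjusted p of 1. Without the female Vwf+ WT library this became -0.64. For Neo1, Alcam, Cd38, Procr and Ly6a the interaction lay between -0.37 and 0.27 on the log2 scale, with adjusted p-values of 1.

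Procr was the marker that differed between the sexes. Female pools had 79.4 CPM in Vwf+ Dnmt3a+/- cells, 114 CPM in Vwf+ WT cells, 44.3 CPM in Vwf- Dnmt3a+/- cells and 51.6 CPM in Vwf- WT cells, and the male pools of the same groups, in the same order, had 143, 152, 102 and 109 CPM. The female pool was lower in 4 of 4 groups, with log2 differences of -1.2 to -0.42, although the ranges of the sexes overlapped across fractions (5.92% of all genes were lower in all 4 female libraries than in any male one). With group in the model the log2 difference was -0.88 ± 0.11 (SE), so the level was 1.85-fold lower in females, with an adjusted p of 8.8e-05 by edgeR. It was the 1 member of 6 that passed, in a comparison where 4.92% of all genes were called lower in females and 10.5% in either direction.

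Sex and replicate number are the same division of these libraries and cannot be told apart. The lower share of Malat1 in female libraries moved with the same division, and its part in the Procr difference was not tested. Cd38 differed by -0.50 ± 0.19 (SE) and Alcam by -0.21 ± 0.09 (SE) on the log2 scale, with adjusted p-values of 0.09 and 0.17. Of all genes, 25.1% had an unadjusted p under 0.05 by edgeR in this comparison. Alcam was lower in the female pool in 4 of 4 groups, and the share of all genes with this pattern was not calculated. Cd38 passed without the male Vwf+ Dnmt3a+/- library (-0.79, adjusted p = 0.0039) or without the female one (-0.79, adjusted p = 0.0082). Neo1, Klrb1c and Ly6a differed by 0.06, 0.29 and -0.18, and did not pass.

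**Figure D4:**
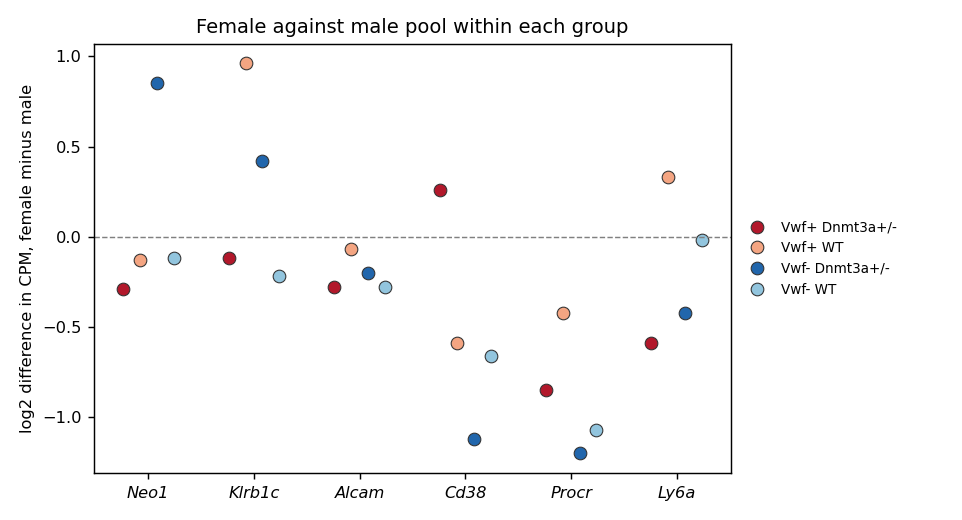
Log2 difference of the female over the male pool in each of the 4 groups (1 point per group, log2 CPM) for each of the 6 members. The 4 points of Procr lie between -1.2 and -0.42, those of Alcam also lie below 0, and the other members have points on both sides of 0.

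Other surface genes of the stem cell compartment were taken from a list of 18, all tested, of which 6 rose and 1 fell in Vwf+ cells averaged over genotype. Of all genes, 3.76% were called higher and 1.68% lower by that rule. The median log2 difference of the list was 0.39, against -0.01 over all genes, and 13 rose and 1 fell with the replicate block, where 7.42% of all genes were called higher and 5.97% lower. Those that rose included Gprc5c, an orphan receptor, by 2.90 on the log2 scale, Selp, the platelet adhesion receptor P-selectin, by 1.89, and Slamf1, which encodes CD150, by 1.83. Itgb3, an integrin chain of platelets, rose by 1.36, the junction molecule Jam3 by 1.00 and the integrin chain Itga6 by 0.52. Thy1, a lipid-anchored protein of T cells and stem cells, fell by 1.48. CD150 and Kit were part of the sorting gate.

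Among surface genes of progenitors, more fell than rose. Of 12 tested, 0 rose and 5 fell in Vwf+ cells, 3 were above 0 without passing, and the median log2 difference was -1.08, in a comparison where 1.68% of all genes were called lower. The cytokine receptor Flt3 stood at 2.16 to 5.66 TPM in Vwf+ libraries and at 20.6 to 26.7 TPM in Vwf- libraries, and fell by 2.62 on the log2 scale. Cd34, a sialomucin, fell by 1.44 and stood at 42.7 to 52.3 TPM in Vwf+ libraries and at 98.4 to 155 TPM in Vwf- libraries. Cd244, a receptor of the SLAM family, fell by 3.27, and Cd27, a receptor of the TNF receptor family, fell by 0.88. In the comparison of Dnmt3a+/- with WT cells, none of the genes of either list was called.

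Among 11 tested binding partners and signalling genes of the 6 markers, 1 changed between the fractions, in a comparison where 5.44% of all genes were called in either direction, so the list as a whole was near that background. Ntn4, which encodes netrin-4, a secreted protein of the netrin family, stood at 10.1 to 18.6 TPM in Vwf+ libraries and at 1.25 to 3.2 TPM in Vwf- libraries. The fractions did not overlap, and the log2 difference was 2.99 ± 0.27 (SE), or 7.94-fold, with an adjusted p of 2e-04 by edgeR. The value was 3.43 in Dnmt3a+/- cells and 2.55 in WT cells, and passed in both. The other partners, which include the netrin and BMP receptors Unc5b, Bmpr1a and Bmpr2, did not pass without a block. Their median with Ntn4 was 0.13 on the log2 scale. With the replicate block, where edgeR called 7.42% of all genes higher, 2 of the 11 were called. These were Ntn4 and Thbd, the latter by 0.56 on the log2 scale (adjusted p = 0.016). The 11 tested did not include Rgma, Proc or Cd6, whose counts did not pass the filter.

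Markers of other bone marrow cells were summed in TPM for comparison. Endothelial markers summed to 167 to 221 TPM in Vwf+ libraries and 122 to 132 TPM in Vwf- libraries, so they moved with the same split as Neo1, Klrb1c, Alcam and Cd38, and their part in these differences was not tested. Of 9 endothelial markers tested, 3 rose, beside 3.76% of all genes, namely Cldn5, Kdr and Cdh5, while Emcn and Egfl7 differed by -0.01 and 0.16 on the log2 scale and did not pass. Lyve1, a marker of sinusoidal endothelium, had at most 5 counts in any library. B cell markers summed to 22.7 to 32.8 TPM in Vwf+ libraries and 22.9 to 28.4 TPM in Vwf- libraries. Stromal markers summed to 13.4 to 29.9 TPM in Vwf+ libraries and 12.0 to 23.7 TPM in Vwf- libraries. Of 8 tested, 6 were above 0, with a median log2 difference of 0.67, and 1 rose, the chemokine Cxcl12, by 1.43 on the log2 scale (adjusted p = 0.037 by edgeR). It was at 2.11 to 6.14 TPM in Vwf+ libraries and at 0.759 to 2.25 TPM in Vwf- libraries, and its part in the differences of the 6 markers was not tested. Monocyte, macrophage and neutrophil markers summed to 388 to 501 TPM in Vwf+ libraries and 346 to 414 TPM in Vwf- libraries. Most of this sum was the lysozyme gene Lyz2, at 371 to 446 TPM in Vwf+ libraries and 308 to 381 TPM in Vwf- libraries, whereas the median log2 difference of the 8 tested was -0.56, with 3 above 0 and none that passed without a block. With the replicate block, where edgeR called 7.42% of all genes higher, Lyz2 was called, by 0.35 on the log2 scale (adjusted p = 0.017). None of the listed markers was at 0 in all 8 libraries.

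The 4 markers that rose in Vwf+ cells followed each other over the libraries. The Pearson correlations of their log2 CPM over 8 libraries ran from 0.90 for Klrb1c with Cd38 to 0.98 for Neo1 with Klrb1c. Correlations that involve Procr or Ly6a ran from 0.45 to 0.76. The 8 points share the Vwf split and the library depths, so these values are descriptions. Of 10175 genes with a mean log2 CPM over 3, those most like Neo1 were Pam (r = 0.996), Ets1 (r = 0.994) and Tnfsf10 (r = 0.991). For Klrb1c they were Ets1 (r = 0.987), B3gnt8 (r = 0.987) and Cysltr2 (r = 0.986), and for Alcam Ndn (r = 0.993), Adck3 (r = 0.992) and Oxr1 (r = 0.991). For Cd38 they were Syde1 (r = 0.995), Kdr (r = 0.993) and Ampd3 (r = 0.992). Procr was followed most closely by Clock (r = 0.99), Gm11346 (r = 0.982) and Pde1b (r = 0.977). The genes most like Ly6a were Ostc (r = 0.976), Abhd14a (r = 0.974) and Atp6v1h (r = 0.969).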

How the data were processed

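RNA of sorted LT-HSCs was sequenced in 8 libraries made with a low-input total RNA kit, per the labels. Tools credited in the submitters' processing notes are DESeq2, Trim Galore, featureCounts and STAR (roles and versions not given in the sources used here), with mm10 as the build. The authors deposited raw counts per gene as whole numbers, and a table of TPM made per gene length; columns named by genotype, sex and GFP status matched 1 sample each. The annotation, strand setting, handling of multiply mapped reads and molecular identifiers are not given in the sources used here, so reads of overlapping or near-identical genes are of uncertain assignment.

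Tests on counts used edgeR 4.0.16 (R 4.3.3). Genes kept by filterByExpr (minimum count 10) were scaled by TMM and fitted with 4 group means over all 8 libraries, which left 4 residual degrees of freedom. The quasi-likelihood F-test was adjusted by Benjamini-Hochberg over all 15917 genes, with a threshold of 0.05. The sex comparison added sex to the group means. SEs were calculated from the F statistic. Total counts were 21809278 to 39402418. Replicates of a group differed beyond counting noise, with chi-square per degree of freedom of 30.5 to 141.

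The replicate numbers pair libraries across groups, since the labels give each number the same sex in each group, and deviations of same-numbered libraries correlated by 0.13 to 0.3 over the genes in 6 pairs of groups. Alternatives were a replicate block, a block of genotype and replicate number, RLE size factors, DESeq2 1.42.0, no filter on low counts, the libraries of the comparison alone, limma 3.58.1 on log2(TPM + 1) or log2(TPM + 0.1), with genes at a TPM of at least 1 in 2 libraries or no filter, and each library left out. The tests were checked on simulated counts. Members and gene lists were chosen with earlier results of these data known. All members were named; list genes were named where they passed (at most 6 per list and direction with the smallest p), others as partners or markers of note after their values were seen, and likeness was the 3 highest Pearson correlations of log2 CPM. 2 listed genes, Cd244a and Ly6g, were not analysed here. Values of 1 further listed gene are not reported here.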

Additional observations from a re-analysis of the deposited data

How the results depend on the processing

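Averaged over genotype, Neo1, Klrb1c, Alcam and Cd38 kept their direction and their call in all 16 alternatives tried, with log2 differences of 2.64 to 3.2, 3.12 to 3.77, 1.18 to 1.32 and 2.1 to 2.76. The members called were 4, and 4 to 5 when each library was left out. Beyond Procr, the replicate block ended or made no call of a member. The block of genotype and replicate number called Procr too. It also called Ly6a averaged over genotype (adjusted p = 0.045) and in WT cells (0.028). With each library left out of the fit with the replicate block, an alternative chosen after seeing the data, 5 to 6 members were called, and Procr ranged from 0.59 to 0.88. Procr was also called without the male Vwf- Dnmt3a+/- library (1.03, adjusted p = 0.024). In Dnmt3a+/- cells the 4 called members became 2 with only the 4 libraries of the comparison, 0 with limma without a filter and 3 to 4 with a library left out. In WT cells the 4 became 2 with limma on log2(TPM + 1) or log2(TPM + 0.1), 1 with limma without a filter and 2 to 4 with a library left out. Without a filter on low counts 1 member, Klrb1c, was called between genotypes in Vwf+ cells, where 0 were called otherwise. Between the sexes the 1 called became 2 without a filter on low counts, 0 with limma without a filter and 1 to 2 with a library left out. These causes were not tested.

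Some small differences that were not called turned direction. For Cd38 between genotypes in Vwf+ cells, the replicate block gave 0.04 and limma 0.12 or 0.13. The Procr interaction was 0.02 with limma, and Neo1 between the sexes was -0.01. With a library left out, turned values lay in these ranges: Ly6a between fractions in Dnmt3a+/- cells -0.18 to 0.42, Neo1 between the sexes -0.19 to 0.18, and the interactions of Alcam -0.13 to 0.16, Cd38 -0.16 to 0.99, Neo1 -0.65 to 0.19 and Procr -0.76 to 0.62. For genotype these were -0.52 to 0.05 for Cd38 and -0.56 to 0.12 for Procr averaged over the fractions. They were -0.3 to 0.3 for Cd38 and -0.75 to 0.11 for Procr in Vwf+ cells. In Vwf- cells they were -1.01 to 0.13 for Cd38, -0.55 to 0.3 for Neo1, 0 to 0.42 for Klrb1c and -0.87 to 0.5 for Procr.

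Counts over all genes also depended on the setting. Between the fractions averaged over genotype, edgeR called 866 genes, against 2132 with the replicate block, 2754 with the block of genotype and replicate number, 1353 with DESeq2, 1649 without a filter on low counts, 489, 469 and 247 in the limma fits (pseudocount 1, pseudocount 0.1, no filter) and 472 to 1387 with a library left out. In Dnmt3a+/- cells 169 were called, against 855, 1257, 476, 633, 77, 65 and 12 in these settings, 42 with the 4 libraries alone and 75 to 291 with a library left out. In WT cells 314 were called, against 1329, 1872, 729, 1059, 84, 71 and 13, 747 with the 4 libraries alone and 64 to 639 with a library left out. Between genotypes 0 were called, against 30 with the replicate block, 15 with DESeq2, 61 without a filter, 1 with limma and 0 to 3 with a library left out. In Vwf+ cells these were 6, 3, 53 and up to 3 with limma, and in Vwf- cells 2, 2 and 27. The interaction had 11 with the block of genotype and replicate number and 24 without a filter. Between the sexes 1677 were called, against 398, 365 and 12 in the limma fits and 713 to 2922 with a library left out. The lowest count of a member in any library was 84, for Cd38.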

Other observations

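Relatives of the 6 markers were mostly at low counts. Of 13 listed, 6 passed the filter on low counts, and 0 of these were called between the fractions. Klrb1a, a neighbour of Klrb1c in the NK receptor family, had at most 7 counts in any library, and Bst1, a relative of Cd38, had at most 6. Dcc, the netrin receptor related to Neo1, had at most 22 counts, and Ly6c1 had at most 11. Klrb1f had 12 to 64 counts per library and was at 0.823 to 2.92 TPM in Vwf+ libraries and at 0.469 to 0.786 TPM in Vwf- libraries. The top of that Vwf+ range was the female Vwf+ WT library, in which Klrb1c was also highest, and the other Vwf+ libraries were at 0.823 to 1.01 TPM. The log2 difference of Klrb1f was 1.12 ± 0.62 (SE) and did not pass edgeR's test. Ly6e, an abundant relative of Ly6a, differed by 0.30 ± 0.18 on the log2 scale (SE) and did not pass without a block, with an adjusted p of 0.047 with the replicate block.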
